A study of Mus musculus with 7 samples.

Results

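Prospermatogonia, the male germ cells of the fetal testis, were compared between fetuses homozygous for the H19Ter+neo allele and wild-type (WT) fetuses. In H19Ter+neo, an RNA terminator cassette, followed by a Pgkneo drug selection cassette between loxP sites, lies where a broad low-level transcript enters the imprinting control region (ICR) of *H19* and *Igf2*. The comparison takes the 3 H19Ter+neo libraries (replicates 5, 6 and 7) and the 2 WT libraries (replicates 1 and 2) of 7 libraries in the series. The other 2 are from H19Ter fetuses, in which Hprt-Cre has removed the Pgkneo cassette and left the terminator, and they entered the fit to estimate the spread and to test where H19Ter+neo differed from H19Ter. Cells of all 3 genotypes carried the Oct4-EGFP transgene TgOG2, in which the *Pou5f1* promoter region drives EGFP, and were sorted by their green fluorescence at 15.5 days postcoitum (dpc) by the protocol, 15 dpc in the source name. The mutant alleles go back to 1 line of targeted 129 ES cells, TgOG2 is on a B6;CBA background, and the strain makeup and litter of each library are not stated in the sources used here and cannot be told apart from genotype. Testes of several fetuses could be digested together, and the labels do not say which fetuses went into a library, so that p-values measure the spread between libraries, which may be technical.

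Total RNA depleted of ribosomal RNA was read as pairs of 50 bases. The libraries held 45.1 and 45.9 M counted read pairs in WT and 84.1, 86.3 and 87.3 M in H19Ter+neo, so that genotype and depth moved together. Levels are given throughout as deposited, in log2 CPM (counts per M read pairs), with WT replicates 1 and 2 first and H19Ter+neo replicates 5, 6 and 7 after them. A log2 fold change is the mean of the H19Ter+neo values minus that of the WT values, with its standard error (SE) from a limma fit to the 7 libraries. A gene passed the test at a Benjamini-Hochberg adjusted p under 0.05 over the 20643 genes of the table, two-sided, and "rose" and "fell" are used of such genes only.

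In the mouse, germ cells that have entered the fetal testis divide as gonocytes, keep part of the pluripotency network of the embryo, and then withdraw from the cell cycle into mitotic arrest. While they switch that network off they turn on male genes such as *Nanos2*, the piRNA pathway that silences transposons, and *Dnmt3l*, the cofactor of the methyltransferase that lays down DNA methylation over the genome. NODAL, held in check by its own targets LEFTY1 and LEFTY2, and FGF signals act in this window, and genes of meiosis are held low until after birth.

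Genotype went with differences in a large share of all genes. Of 20643 genes, 11231 (54.4%) passed the test, 5717 higher (27.7%) and 5514 lower (26.7%) in H19Ter+neo. The second rule, which also asked for a change of at least 2-fold, was met by 3650 genes (17.7%), 2568 higher (12.4%) and 1082 lower (5.24%). These shares are the background against which each group of genes is set, and the median log2 fold change over all genes was 0.015. Falls were common among highly expressed genes and rises among weakly expressed ones. Of the 14150 genes with a mean level of at least 1, 3465 rose (24.5%) and 4675 fell (33%). At mean levels of 4 to 6 and of 6 to 8, the share of falls was 39% and 40.4%, and that of rises 20.2% and 20.7%. The 6493 genes below a level of 1 had 2252 rises (34.7%) and 839 falls (12.9%).

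**Figure D1:**
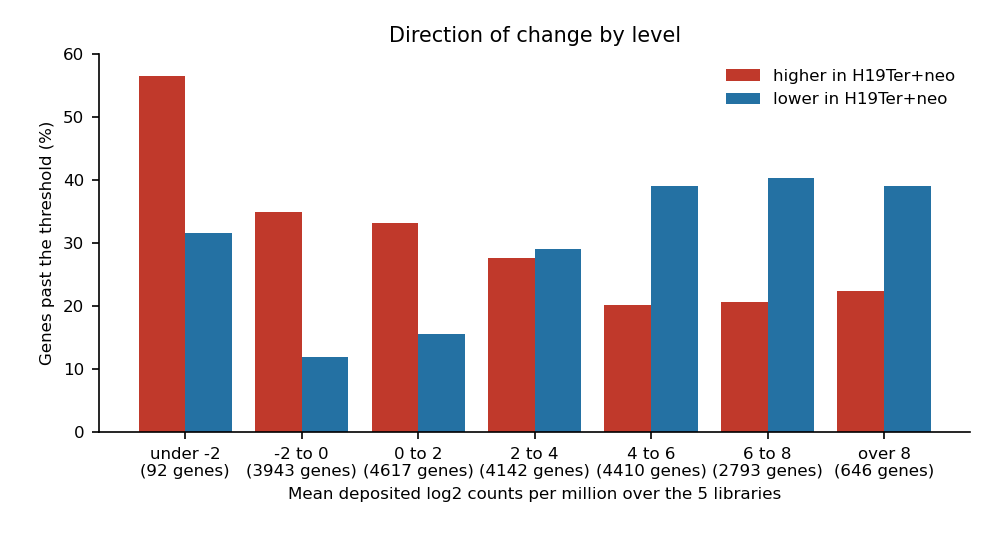
Share of genes that rose or fell (percent, vertical axis) in H19Ter+neo against WT at an adjusted p under 0.05, by mean level over the 5 libraries (log2 CPM, horizontal axis, number of genes under each bin). Rises outnumbered falls in the bins below 2, and falls outnumbered rises in the bins above it.

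Changes were ranked among genes that passed, with a mean level of at least 1 and no overlap between groups. Symbols that start with Gm or end with Rik were left out of this ranking. The protein-coding genes highest in it were of mixed function, with enzymes, plasma proteins and adhesion molecules on the rising side. *Phyhip*, which encodes a partner of the peroxisomal enzyme phytanoyl-CoA hydroxylase, was at -1.0 and -0.75 in WT and 3.24, 4.58 and 4.43 in H19Ter+neo (log2 fold change 4.96 ± 0.33 SE, adjusted p = 6.37e-06). *Cyp2c55*, a cytochrome P450, was at -0.26 and -0.036 in WT and 3.57, 3.59 and 4.18 in H19Ter+neo, and *Serpina3c*, a serine protease inhibitor, at -0.38 and -1.27 in WT and 1.93, 2.35 and 2.46 in H19Ter+neo. The means of these 3 genes differed by 31.1-fold, 15.2-fold and 8.44-fold. That all 3 mutant libraries lay above both WT libraries was a condition of the ranking. The other protein-coding genes among the 15 largest rises were *Abi3bp* of the extracellular matrix (2.97), the signalling adaptor *Grb14* (2.83), *Tagap* (2.69), the neural adhesion molecule *Cntn1* (2.64), *Prag1* (2.60), *Arhgap36* (2.56) and the complement component *C3* (2.56). The protein-coding genes among the 15 largest falls were *Phex*, an endopeptidase of phosphate balance (-3.65), the calpain *Capn11* (-3.25), the G protein subunit *Gng13* (-2.91), *L1td1* (-2.88) and *Eps8l1*, an actin regulator (-2.83). *Phex* did not pass without WT replicate 2 (log2 fold change -2.78).

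27 of 33 pluripotency genes with a value fell, 14 of them at least 2-fold, 2 rose, and the median log2 fold change was -0.90. The background shares of falls were 26.7% and, at 2-fold, 5.24%. The deepest fall was in *L1td1* (chr4:98726734-98738480, plus strand, GRCm38), an RNA-binding protein of pluripotent cells, which was at 5.12 and 5.55 in WT and 2.91, 2.14 and 2.32 in H19Ter+neo (log2 fold change -2.88 ± 0.21 SE, adjusted p = 1.02e-05). Each mutant library lay below both WT libraries, and the means differed by 7.34-fold. Such separation of the 3 mutant from the 2 WT libraries was common, found for 71.8% of all genes, with 36.6% above and 35.2% below WT. *Sox2*, a core factor of the network, was at 5.93 and 6.12 in WT and 4.96, 4.81 and 4.45 in H19Ter+neo (log2 fold change -1.29 ± 0.13 SE, adjusted p = 4.63e-05), and *Nanog*, which works with it, was at 4.95 and 5.36 in WT and 4.08, 3.76 and 3.91 in H19Ter+neo (log2 fold change -1.24 ± 0.13 SE, adjusted p = 4.77e-05). For both factors the groups did not overlap. *Pou5f1*, which encodes OCT4 and whose promoter region drives the sorting transgene, was at 8.01 and 8.09 in WT and 7.42, 7.53 and 7.21 in H19Ter+neo (log2 fold change -0.66 ± 0.085 SE, adjusted p = 0.000143), so that it fell less than *Sox2* and *Nanog* and remained the most highly expressed of the 3.

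Most factors of naive pluripotency and their partners fell. *Esrrb* (-1.31), *Nr5a2* (-1.32), *Klf5* (-1.26), *Tfcp2l1* (-0.90) and *Prdm14* (-1.48), transcription factors of the ground state or of the germline, were all lower, as was *Otx2*, a factor of the primed epiblast, at 4.02 and 4.39 in WT and 2.92, 2.0 and 2.0 in H19Ter+neo (log2 fold change -1.90 ± 0.29 SE, adjusted p = 0.000407). *Lin28a*, which blocks the maturation of let-7 microRNAs, was at 8.23 and 8.28 in WT and 7.28, 7.54 and 7.36 in H19Ter+neo (log2 fold change -0.86 ± 0.075 SE, adjusted p = 1.92e-05). The 2 members that rose were *Klf4*, at 4.0 and 3.66 in WT and 4.93, 5.18 and 5.09 in H19Ter+neo (log2 fold change 1.24 ± 0.11 SE, adjusted p = 2.61e-05), and *Tbx3*, at -1.45 and -0.55 in WT and 0.54, 0.06 and 0.68 in H19Ter+neo (log2 fold change 1.43 ± 0.31 SE, adjusted p = 0.00305). *Klf4* is also an immediate early gene, and both rises were over 2-fold with no overlap between groups. Compared with H19Ter, 18 of the 33 genes were lower and 1 was higher in H19Ter+neo in the test of that difference, against 15.2% and 12.5% of all genes.

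**Figure D2:**
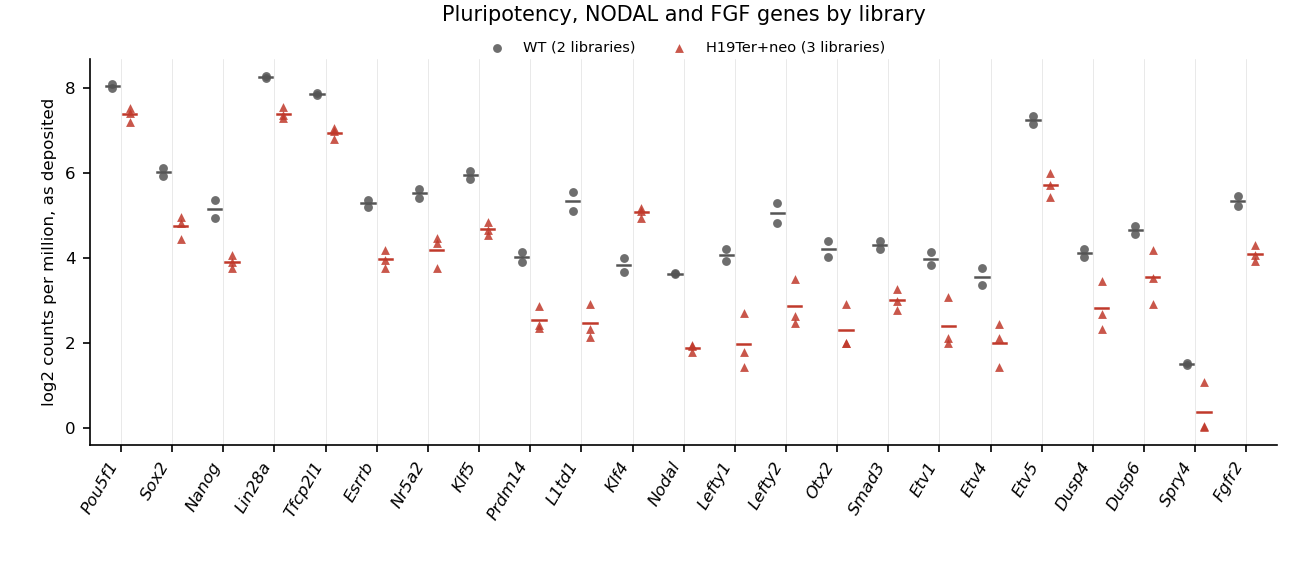
Level (log2 CPM, as deposited, vertical axis) of 23 genes of the pluripotency network and of NODAL and FGF signalling (horizontal axis) in each library. Grey circles are the 2 WT and red triangles the 3 H19Ter+neo libraries, with a line at the mean of each, and the H19Ter+neo points lie below the WT points for every gene shown but Klf4, where they lie above.

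NODAL and its feedback inhibitors fell by more than 2-fold. *Nodal* (chr10:61417972-61425338, plus strand), the ligand, was at 3.62 and 3.64 in WT and 1.93, 1.96 and 1.79 in H19Ter+neo (log2 fold change -1.74 ± 0.13 SE, adjusted p = 1.06e-05). *Lefty1* and *Lefty2*, secreted inhibitors that are themselves NODAL targets, were at 3.93 and 4.20 in WT and 2.71, 1.79 and 1.44 in H19Ter+neo (log2 fold change -2.09 ± 0.29 SE, adjusted p = 0.000235) and at 4.82 and 5.30 in WT and 3.50, 2.63 and 2.46 in H19Ter+neo (log2 fold change -2.20 ± 0.26 SE, adjusted p = 9.83e-05). In all of these the mutant libraries lay below both WT libraries. The transducer *Smad3* fell (-1.30), as did *Foxh1*, which brings SMAD proteins to DNA (-1.75), and the ligand *Bmp4* of the related BMP branch (-1.09). Of the 36 NODAL, activin and BMP genes, 15 fell and 5 rose, and at 2-fold it was 9 and 1, with a median of -0.23. The rises without WT replicate 2 were 3.

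Readouts of FGF signalling through the MAP kinases also fell. *Etv4* was at 3.36 and 3.76 in WT and 2.45, 2.12 and 1.43 in H19Ter+neo and *Etv5* at 7.16 and 7.34 in WT and 6.0, 5.71 and 5.43 in H19Ter+neo, and these ETS factors, which FGF turns on, changed by -1.56 and -1.53 on the log2 scale. The groups were separate for both. The receptor *Fgfr2* (-1.24), the feedback phosphatase *Dusp4* (-1.30) and the feedback inhibitor *Spred2* (-0.79) were lower as well. Over the list, 17 of 31 genes fell and 6 rose (median -0.36), with 10 falls without WT replicate 2.

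WNT receptors and the repressor *Tcf7l1* were lower. *Tcf7l1*, which holds pluripotency genes down in the absence of WNT, was at 3.18 and 3.37 in WT and 1.49, 1.68 and 1.68 in H19Ter+neo (log2 fold change -1.66 ± 0.15 SE, adjusted p = 2.7e-05), and the receptors *Fzd7* (-1.54) and *Fzd5* (-1.12) and the scaffold *Axin1* (-0.73) fell too. 18 of 41 WNT genes fell and 5 rose, with 9 falls and 1 rise at 2-fold. In NOTCH signalling 13 of 31 fell, the receptor *Notch3* by -1.49 and the HES family gene *Hes6* by -1.19 on the log2 scale. In the same list 6 rose, among them *Lfng*, which adds sugar to NOTCH receptors (1.65). In the insulin and IGF pathway 17 of 41 fell (41.5%) and 5 rose (12.2%). Among all genes at a mean level of 4 to 6, 39% fell and 20.2% rose. The receptor *Igf1r* was lower (-0.49), as were the mTOR inhibitors *Deptor* (-1.17) and *Ddit4* (-1.33), and the insulin receptor substrate *Irs4* was higher (1.64). The NOTCH list had 8 falls without WT replicate 2 and 2 rises without WT replicate 1.

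The male germ cell genes did not move as one. Of 28 genes of fetal male germ cells, 10 rose and 7 fell, and the median was -0.049. *Nanos2*, the RNA-binding protein that sets the male fate, was at 5.82 and 5.89 in WT and 4.75, 5.07 and 4.39 in H19Ter+neo (log2 fold change -1.12 ± 0.15 SE, adjusted p = 0.000209), below WT in every mutant library. *Tktl1*, an X-linked transketolase-like gene of germ cells, was at 6.19 and 6.01 in WT and 7.05, 7.17 and 7.24 in H19Ter+neo (log2 fold change 1.06 ± 0.076 SE, adjusted p = 8.72e-06), above WT in every mutant library. *Kit*, the receptor of stem cell factor, fell (-0.89). Of 37 genes of spermatogonial stem cells, 11 rose (29.7%) and 13 fell (35.1%), also not far from the background. *Lhx1* (-1.97), *Etv5* and the GDNF receptor *Ret* (-1.03) fell, while *Egr2* (1.59) and *Bcl6b* (1.03) rose. *Sohlh1*, a factor of spermatogonial differentiation, was at 3.52 and 3.55 in WT and 4.82, 4.84 and 4.78 in H19Ter+neo (log2 fold change 1.28 ± 0.082 SE, adjusted p = 4.78e-06).

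Genes of the piRNA pathway rose more often than they fell, 16 against 5 of 28, with a median of 0.25 and none past 2-fold. *Piwil4*, the nuclear PIWI protein that directs methylation of transposons, was at 8.06 and 7.95 in WT and 8.65, 8.91 and 9.0 in H19Ter+neo (log2 fold change 0.85 ± 0.092 SE, adjusted p = 5.52e-05). *Mael*, a piRNA factor of the germ granule, was at 9.20 and 9.14 in WT and 9.65, 9.75 and 9.64 in H19Ter+neo (log2 fold change 0.51 ± 0.054 SE, adjusted p = 5.21e-05), and *Henmt1*, which methylates the ends of piRNAs, at 3.98 and 4.09 in WT and 4.90, 5.04 and 5.14 in H19Ter+neo (log2 fold change 0.99 ± 0.097 SE, adjusted p = 3.47e-05). The mutant libraries lay above both WT libraries for each. *Spocd1*, which links PIWIL4 to the methylation machinery, rose by 0.87 and *Gtsf1* by 0.60, whereas *Tdrd12* fell (-0.60). Against H19Ter, 10 piRNA genes were higher and 0 lower in the test of the difference. The falls against WT were 3 without WT replicate 2 and as many without H19Ter+neo replicate 7.

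In de novo methylation the cofactor and the enzyme changed unequally. *Dnmt3l* (chr10:78041947-78063622, plus strand) was at 5.43 and 5.16 in WT and 6.31, 6.64 and 6.55 in H19Ter+neo (log2 fold change 1.21 ± 0.11 SE, adjusted p = 2.33e-05), 2.31-fold higher with no overlap. *Dnmt3a*, the methyltransferase itself, was at 8.27 and 8.17 in WT and 8.35, 8.59 and 8.45 in H19Ter+neo (log2 fold change 0.25 ± 0.072 SE, adjusted p = 0.0142) and did not pass without WT replicate 2 (0.20). *Kdm1b*, a demethylase of histone H3 lysine 4, rose (log2 fold change 1.09 ± 0.08 SE, adjusted p = 9.52e-06). *Tet1*, which oxidises methylated cytosine, was at 8.95 and 9.21 in WT and 8.11, 7.70 and 7.68 in H19Ter+neo (log2 fold change -1.25 ± 0.12 SE, adjusted p = 3.74e-05), and *Trim28* and *Setdb1*, partners in silencing by KRAB zinc finger proteins, changed by -0.62 and -0.50 on the log2 scale. Over the 26 genes of methylation and its erasure, 8 rose and 14 fell (median -0.21).

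Meiosis genes were higher in 19 and lower in 7 of 44 cases (median 0.19), and all 4 changes of at least 2-fold were rises. *Mei1*, needed for the double-strand breaks of recombination, was at -0.71 and -0.50 in WT and 1.70, 1.84 and 2.43 in H19Ter+neo (log2 fold change 2.60 ± 0.23 SE, adjusted p = 2.17e-05). *Meiob* and *Spata22*, which bind single-stranded DNA together, were at 0.28 and 0.60 in WT and 2.25, 2.37 and 2.21 in H19Ter+neo (log2 fold change 1.84 ± 0.17 SE, adjusted p = 2.58e-05) and at -0.38 and -0.25 in WT and 1.53, 2.10 and 1.97 in H19Ter+neo (log2 fold change 2.18 ± 0.23 SE, adjusted p = 4.8e-05). The groups were apart in each, and the rises were of 6.05-fold, 3.57-fold and 4.54-fold. *Stra8*, the gatekeeper of meiotic entry, was at 0.77 and 1.10 in WT and 1.09, 1.85 and 1.78 in H19Ter+neo and did not pass (adjusted p = 0.102), and neither did the axis protein *Sycp3*, at 6.04 and 6.22 in WT and 6.51, 6.32 and 6.07 in H19Ter+neo (adjusted p = 0.247). Of 16 genes of ovarian germ cells and granulosa cells, 10 rose and 3 fell. The oocyte factor *Figla* (1.43), the zona pellucida gene *Zp2* (2.52), *Nlrp14* (1.65) and *Padi6* (1.78) were higher. *Figla* was at 0.20 and 0.029 in WT and 1.69, 1.55 and 1.40 in H19Ter+neo, a low level in either genotype. In the X-linked germ cell clusters 13 of 32 rose and 6 fell, with *Magea4* (1.89) and the RNA export factor *Nxf2* (0.95) on the rising side. Without WT replicate 2 the meiosis genes had 2 falls and the X-linked genes 2.

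**Figure D3:**
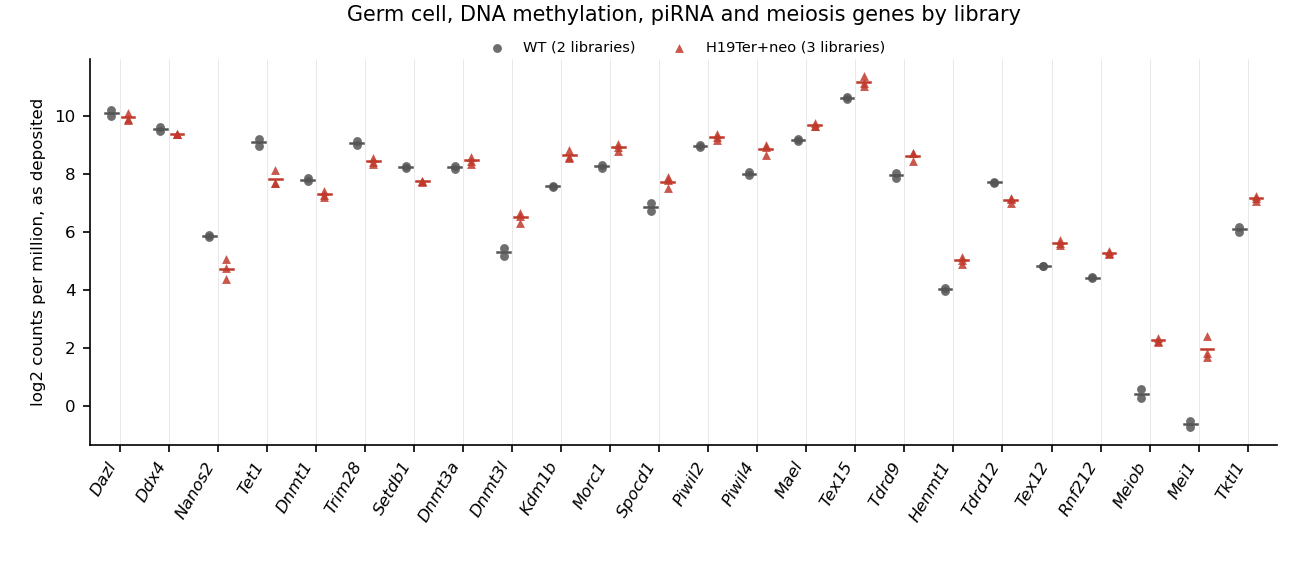
Level (log2 CPM, as deposited, vertical axis) of 24 genes of male germ cells, the piRNA pathway, DNA methylation and meiosis (horizontal axis) in each library. Grey circles are the 2 WT and red triangles the 3 H19Ter+neo libraries, with a line at the mean of each, and the H19Ter+neo points of Dnmt3l, Piwil4, Henmt1, Meiob and Mei1 lie above the WT points and those of Nanos2 and Tet1 below.

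Imprinted genes changed in both directions. Outside distal chromosome 7, 14 of 39 rose and 10 fell, 8 and 5 of them by 2-fold or more, against 12.4% and 5.24% of all genes. *Grb10*, an inhibitor of growth factor receptors, was at 5.36 and 5.14 in WT and 7.12, 6.96 and 7.66 in H19Ter+neo (log2 fold change 2.0 ± 0.16 SE, adjusted p = 1.55e-05), and *Rian*, the noncoding RNA of the *Dlk1* domain, at 5.95 and 5.75 in WT and 7.24, 7.27 and 7.65 in H19Ter+neo (log2 fold change 1.54 ± 0.11 SE, adjusted p = 1.02e-05). *Peg3*, a zinc finger gene expressed from the paternal allele, was at 8.80 and 8.91 in WT and 7.56, 7.62 and 7.61 in H19Ter+neo (log2 fold change -1.25 ± 0.062 SE, adjusted p = 1.08e-06). *Rasgrf1* (1.42) and *Sgce* (1.42) rose and *Impact* (-1.12) fell. In the cluster of distal chromosome 7, 7 of 17 rose, 4 of them at least 2-fold, and 3 fell. At a mean level of at least 1, 4 of 12 rose, 1 of them at least 2-fold, and 3 fell. There the long noncoding RNA *Kcnq1ot1* fell (log2 fold change -0.79 ± 0.078 SE, adjusted p = 3.59e-05). *Kcnq1*, which it overlaps in antisense, rose (2.06), but at a level too low to enter the filters at a log2 value of 0 or 1 in 2 libraries. Whether the counting used strand is not stated in the sources used here, so that reads of this pair may not be kept apart.

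Beside the inserted cassettes no gene changed by 2-fold. *H19*, the gene that flanks the ICR, was at 5.48 and 5.52 in WT and 5.10, 5.34 and 5.36 in H19Ter+neo (log2 fold change -0.23 ± 0.11 SE, adjusted p = 0.102) and did not pass. *Igf2* was at 1.11 and 0.60 in WT and 0.80, 1.05 and 1.03 in H19Ter+neo (adjusted p = 0.69) and *Gm33148*, a noncoding RNA beyond the ICR, at 2.50 and 2.18 in WT and 1.96, 1.91 and 2.11 in H19Ter+neo (adjusted p = 0.0794), and neither passed. Within the 7 genes of the domain, *Lsp1* rose (0.65) and *Th*, tyrosine hydroxylase, fell (-0.87). The genes are annotated, and the cassettes themselves were not analysed here, so that these values do not check the genotype. Of the genes whose promoters or loci were used in making the alleles, *Pgk1*, whose promoter drives neo, was at 3.27 and 3.54 in WT and 2.93, 2.62 and 2.56 in H19Ter+neo (log2 fold change -0.70 ± 0.17 SE, adjusted p = 0.00541) and did not pass without WT replicate 2 (-0.57). *Hprt* rose (0.44).

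Cell division genes fell across the mitotic apparatus. Of 65 genes of the spindle, kinetochore and cytokinesis, 43 fell and 5 rose, with a median of -0.41, and 6 fell at least 2-fold. The antigen Ki-67, encoded by *Mki67*, coats mitotic chromosomes and marks cycling cells. Its level was 7.66 and 8.04 in WT and 6.61, 5.77 and 6.14 in H19Ter+neo (log2 fold change -1.68 ± 0.21 SE, adjusted p = 0.000124), and every mutant library was below both WT libraries. *Plk1*, a kinase of mitotic entry, was at 4.52 and 4.61 in WT and 3.48, 3.27 and 3.24 in H19Ter+neo (log2 fold change -1.24 ± 0.10 SE, adjusted p = 1.71e-05), *Aurkb*, the kinase of the chromosomal passenger complex, changed by -1.40 and *Mybl2*, which turns on mitotic genes, by -1.17 on the log2 scale. Against that trend *Cdc25b*, a phosphatase that activates CDK1, was at 3.21 and 3.18 in WT and 4.33, 4.38 and 4.69 in H19Ter+neo (log2 fold change 1.27 ± 0.12 SE, adjusted p = 2.39e-05) and the scaffold *Anln* rose (0.73). The list had 3 rises without WT replicate 1.

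Short stretches of 4 promoters of this list are shown because they hold, within a small space, the letters CCAAT and TTTGAA, which are the core of the CCAAT box and of the cell cycle homology region found upstream of many mitotic genes. Each is printed 5′ to 3′ on the strand of its gene, from RefSeq on GRCm38.p6, with both motifs in capitals, in either orientation (ATTGG and TTCAAA are the reverse complements).
Espl1, chr15:102296244-102296276, plus strand: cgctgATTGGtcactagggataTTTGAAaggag
Kif11, chr19:37376332-37376373, plus strand: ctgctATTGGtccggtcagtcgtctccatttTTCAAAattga
Cdc20, chr4:118437344-118437401, minus strand: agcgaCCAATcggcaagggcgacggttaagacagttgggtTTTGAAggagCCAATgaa
Mki67, chr7:135716467-135716572, minus strand: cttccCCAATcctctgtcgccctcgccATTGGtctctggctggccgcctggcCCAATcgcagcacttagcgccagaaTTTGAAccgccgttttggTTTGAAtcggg

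*Espl1* encodes separase, which cuts cohesin at anaphase, *Kif11* the motor that pushes spindle poles apart, and *Cdc20* the activator of the anaphase-promoting complex. Their log2 fold changes were -0.54 (adjusted p = 0.000106), -0.54 (adjusted p = 0.00155) and -0.72 (adjusted p = 3.96e-05), beside -1.68 for *Mki67*. In the 250 bases before the start, CCAAT was found on either strand in 39 of the 54 mitotic genes with a promoter window (72.2%) and in 36.3% of all 12892 genes with one. TTTGAA was found in 19 of 54 (35.2%) against 11.3% of all. Both motifs were found in 17 of 54 against 4.27% of all. Of the 32 mitotic genes that fell, 25 held CCAAT and 14 held TTTGAA, and of the other 22, 14 and 5. A match is a description of these letters and not of a bound site.

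In the earlier phases of the cycle *Mycn*, a growth-promoting transcription factor of germ cells, was at 5.63 and 5.88 in WT and 4.87, 4.37 and 4.33 in H19Ter+neo (log2 fold change -1.23 ± 0.16 SE, adjusted p = 0.000145). 12 of 27 G1 cyclin, E2F and RB genes fell and 0 rose, among the falls *E2f3* (-1.11), *E2f4* (-1.08) and *E2f8* (-1.48). Of the 57 replication and licensing genes 24 fell (42.1%) and 8 rose (14.0%). Among all genes at a mean level of 4 to 6, 39% fell and 20.2% rose, so that this share of falls was near theirs. The helicase subunit *Mcm2* was at 6.96 and 7.08 in WT and 6.18, 6.04 and 6.03 in H19Ter+neo (log2 fold change -0.94 ± 0.083 SE, adjusted p = 2.1e-05), and *Rrm2*, which makes deoxynucleotides, changed by -1.21 on the log2 scale, while the clamp loader subunit *Rfc3* rose (0.99). The inhibitors of the cycle did not rise together. Of 16 genes of CDK inhibition and arrest, 5 fell and 1 rose, and *Cdkn1b*, which encodes p27, was at 6.05 and 6.12 in WT and 5.62, 5.49 and 5.34 in H19Ter+neo (log2 fold change -0.60 ± 0.09 SE, adjusted p = 0.000371). The CDK inhibitor gene *Cdkn1a* fell as well (-0.95), beside *Trp53*, its activator (-1.01). DNA repair genes fell in 26 (41.3%) and rose in 6 (9.5%) of 63 cases, *Xrcc1* by -0.85 and *Mdc1* by -1.0 on the log2 scale. That share of falls, too, was near the 39% among all genes at a mean level of 4 to 6. Without WT replicate 2, 7 of the G1 genes and 3 of the arrest genes fell, and without H19Ter+neo replicate 7 it was also 3 of the latter.

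Genes that build ribosomes fell, whereas those of the ribosomal proteins themselves did not move as a body. Of 70 genes of rRNA synthesis and ribosome biogenesis, 47 fell and 3 rose (median -0.35). *Nolc1*, a nucleolar phosphoprotein that works with RNA polymerase I, was at 6.50 and 6.81 in WT and 5.07, 4.93 and 4.79 in H19Ter+neo (log2 fold change -1.73 ± 0.11 SE, adjusted p = 5.17e-06), 3.31-fold lower with no overlap. *Tcof1*, its partner treacle, was at 6.22 and 6.43 in WT and 5.24, 5.32 and 5.17 in H19Ter+neo (log2 fold change -1.08 ± 0.081 SE, adjusted p = 1.02e-05), and *Rrp1*, a processing factor, changed by -1.47 on the log2 scale. Against H19Ter, 27 of these genes were lower and 1 higher. All but 1 of the 10 subunits of RNA polymerase III fell (9, median -0.46), *Polr3gl* by -1.0. Enzymes that charge tRNAs fell in 19 and rose in 3 of 37 cases, with *Vars* at -0.76 and *Lars* at -0.68, and enzymes that modify tRNA and rRNA fell in 33 of 65 and rose in 6. The 84 genes named as cytoplasmic ribosomal proteins, whose reads can be shared with their many processed copies, had 25 rises, 15 falls and a median of 0.054. Counted among these rises by its name is *Rps3a3*, which is annotated as a processed pseudogene. The acidic stalk protein *Rplp0* fell (-0.68) and *Rps7* rose (0.97). Counts of the ribosomal protein list moved with single libraries, with 12 rises without WT replicate 1, 41 without H19Ter+neo replicate 7 and 7 falls without WT replicate 2. Also without WT replicate 2, falls numbered 5 for RNA polymerase III, 12 for the tRNA-charging and 16 for the modifying enzymes. The falls of ribosome biogenesis genes numbered 35 without it.

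**Figure D4:**
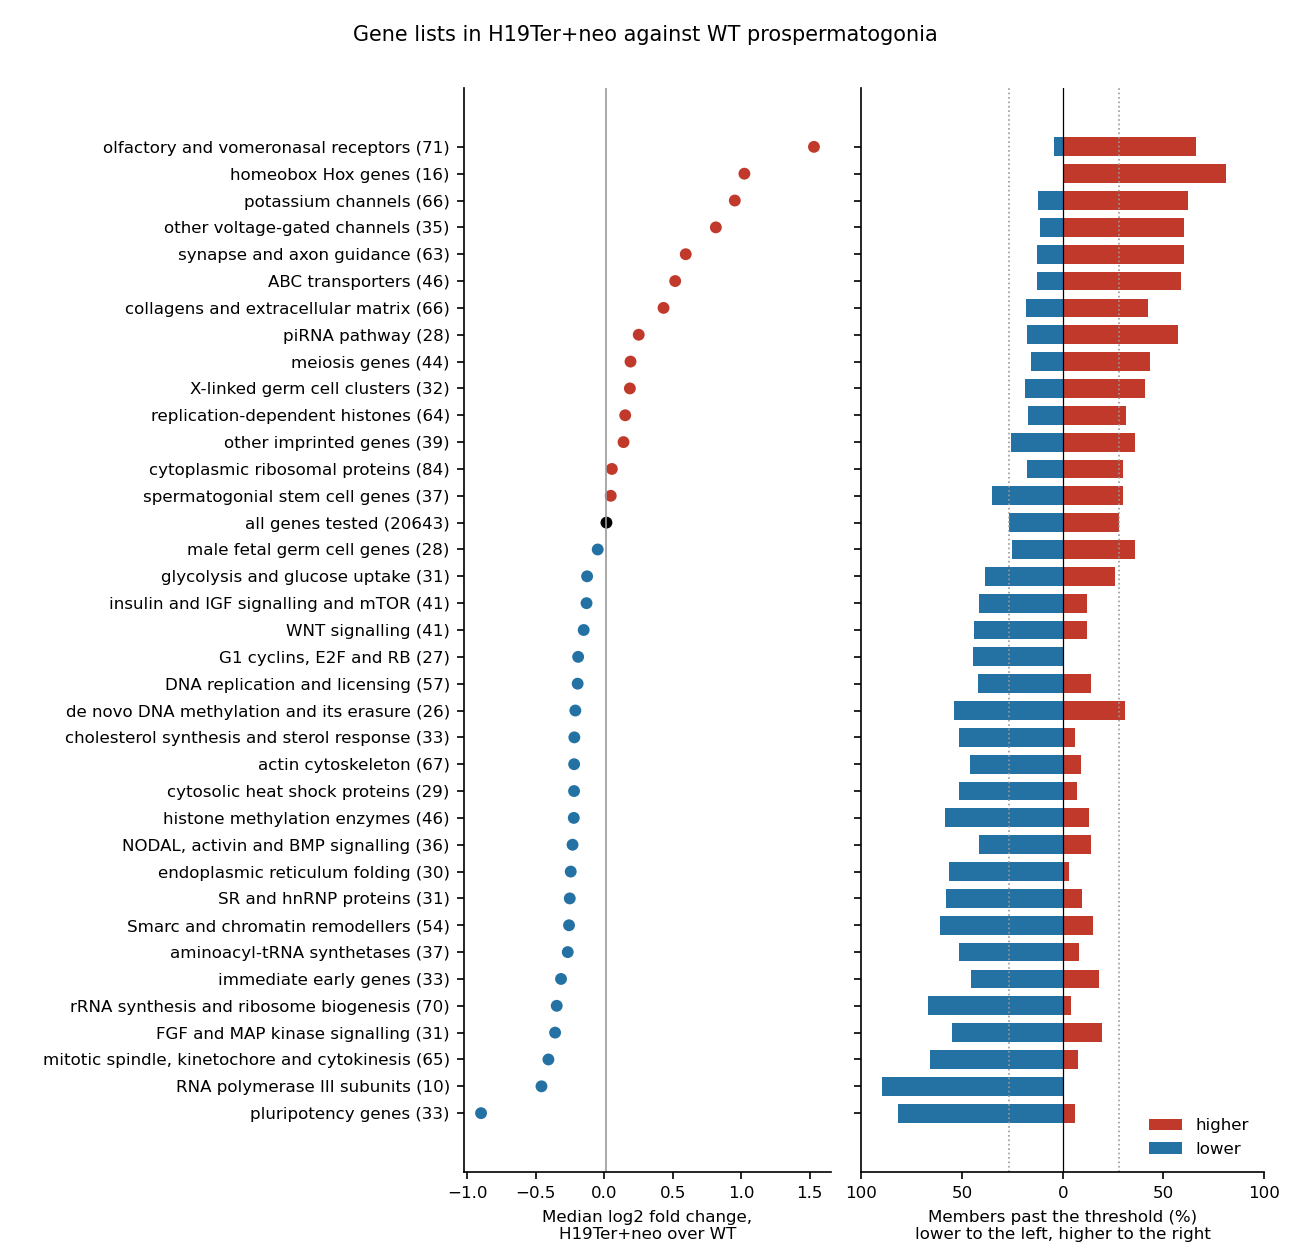
Median log2 fold change of H19Ter+neo against WT (dots, left panel) and share of members that rose or fell at an adjusted p under 0.05 (percent, bars, right panel) for 36 gene lists and all genes, with the number of members with a value after each name. A grey line gives the median over all genes (0.015) and dotted lines their shares (27.7% higher, 26.7% lower). The pluripotency list lies lowest, at -0.90, and the olfactory and vomeronasal receptors highest, at 1.53.

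In RNA processing, too, falls outnumbered rises. Of 31 SR and hnRNP proteins, which bind pre-mRNA, 18 fell and 3 rose, *Hnrnpu* by -0.55 and *Hnrnpd* by -0.79 on the log2 scale. In the small ribonucleoproteins of the spliceosome 20 of 55 fell (36.4%) and 4 rose, with *Sf3a2* at -0.93, and that share of falls was no larger than among all genes at a mean level of 6 to 8 (40.4%). In the RNA exosome, which trims RNA from its end, 6 of 11 fell and 0 rose, *Exosc2* the furthest (-1.15). The DEAD and DEAH box helicases had 29 falls and 8 rises in 53, with the germ cell helicases *Ddx25* (0.95) and *Ddx43* (0.80) among the rises. The spliceosome list without WT replicate 2 had 12 falls and the helicases 17 falls and 4 rises. Small noncoding RNAs differed by class. Of 53 small nucleolar RNAs 13 rose and 3 fell (median 0.13), with 6 falls without H19Ter+neo replicate 5. Both shares lay below those of all genes (27.7% and 26.7%), and the median was -0.057 after the correction for GC content and length. Of the 11 named small nuclear and related RNAs, 9 rose. Among them were *Rn7sk*, which holds the elongation factor P-TEFb, at 14.51 and 14.45 in WT and 15.75, 15.27 and 16.02 in H19Ter+neo (log2 fold change 1.20 ± 0.16 SE, adjusted p = 0.000194), and *Rpph1*, the RNA of RNase P (1.18). These RNAs are not polyadenylated.

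Falls outnumbered rises among chromatin remodellers and histone-modifying enzymes. Of 54 SWI/SNF, CHD and related genes 33 fell and 8 rose. *Arid1a*, a subunit of SWI/SNF, was at 8.14 and 8.18 in WT and 7.04, 7.06 and 6.77 in H19Ter+neo (log2 fold change -1.21 ± 0.087 SE, adjusted p = 8.65e-06), and the ATPases *Smarca4* (-0.70) and *Chd4* (-0.79) fell, while the ISWI ATPase *Smarca1* rose (1.17). Histone methylation enzymes fell in 27 of 46 and rose in 6. *Kmt2d*, a methyltransferase of enhancers, was at 9.54 and 9.37 in WT and 8.27, 8.31 and 7.95 in H19Ter+neo (log2 fold change -1.28 ± 0.10 SE, adjusted p = 1.5e-05), with *Kmt2a* (-0.61) and the demethylase *Kdm6b* (-1.02) beside it. For acetylation it was 21 falls and 6 rises in 37, with the corepressor *Ncor1* at -0.88. Of 38 Polycomb genes 18 fell and 8 rose, *Phc1* down (-0.87) and *Eed* (0.54) and *Bmi1* (0.50) up. The replication-dependent histones, made without a poly(A) tail, went the other way, with 20 rises and 11 falls in 64 genes, and 38 were higher and 2 lower than in H19Ter. *Hist1h4c*, a gene for histone H4, was at 6.94 and 6.83 in WT and 8.35, 7.93 and 8.58 in H19Ter+neo (log2 fold change 1.40 ± 0.14 SE, adjusted p = 4.55e-05). Their falls numbered 2 without WT replicate 2 and 19 without H19Ter+neo replicate 5. Their near-identical coding sequences make the split of reads between copies uncertain.

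Metabolic genes fell more often than they rose in most pathways listed. Of 37 genes of the pentose phosphate pathway, nucleotide synthesis and one-carbon metabolism, 19 fell and 4 rose. *Mthfd1*, an enzyme of folate metabolism, was at 5.87 and 6.11 in WT and 5.02, 4.68 and 4.64 in H19Ter+neo (log2 fold change -1.21 ± 0.12 SE, adjusted p = 3.09e-05), and *Gart* of purine synthesis (-0.69) and *Ahcy*, which clears the product of methylation reactions (-0.80), fell. In cholesterol synthesis and the sterol response 17 of 33 fell and 2 rose. The regulators *Srebf1* (-0.69) and *Srebf2* (-0.48) fell. Glycolysis was mixed, with 12 falls and 8 rises in 31 genes. Its share of falls (38.7%) was close to that of all genes at a mean level of 4 to 6 (39%). *Ldhb* (-1.30), *Tpi1* (-1.05) and *Gapdh* (-0.55) fell, and *Ldha*, the other lactate dehydrogenase subunit, was at 3.41 and 3.91 in WT and 4.37, 4.31 and 4.77 in H19Ter+neo (log2 fold change 0.82 ± 0.18 SE, adjusted p = 0.00292). Leaving out WT replicate 2, the falls numbered 12 in the first of these lists and 10 in cholesterol synthesis.

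Protein folding genes fell more often than they rose. Of 30 genes of folding in the endoplasmic reticulum 17 fell and 1 rose, with the chaperones *Hyou1* at 7.69 and 7.84 in WT and 6.91, 6.65 and 6.58 in H19Ter+neo (log2 fold change -1.05 ± 0.094 SE, adjusted p = 2.16e-05) and *Calr* at -0.79 on the log2 fold scale. Of 29 cytosolic heat shock and related proteins 15 fell and 2 rose. *Hsp90ab1*, a constitutive HSP90, was at 11.56 and 11.65 in WT and 10.77, 10.90 and 10.68 in H19Ter+neo (log2 fold change -0.83 ± 0.067 SE, adjusted p = 1.54e-05), and the cochaperones *Bag3* (-1.15) and *Stip1* (-0.69) fell. Targets of the integrated stress response were mixed, 9 up and 13 down of 37, with the cystine transporter *Slc7a11* (1.68) and *Cebpb* (1.49) up. Immediate early genes, which respond within minutes to stimuli that include the dissociation of tissue before sorting, fell in 15 and rose in 6 of 33 cases. *Noct*, a rhythmic phosphatase, was at 7.48 and 7.47 in WT and 5.71, 5.40 and 5.42 in H19Ter+neo (log2 fold change -1.96 ± 0.095 SE, adjusted p = 1.04e-06), and *Egr2* rose (1.59). The part of cell handling in these values was not tested. Without WT replicate 2, 11 of the endoplasmic reticulum genes and 7 of the immediate early genes fell, and without WT replicate 1 it was 8 of the latter.

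Cadherins moved in opposite directions. *Cdh1*, the cadherin of epithelia and early germ cells, was at 7.38 and 7.55 in WT and 6.42, 6.29 and 6.05 in H19Ter+neo (log2 fold change -1.21 ± 0.11 SE, adjusted p = 2.24e-05), and *Cdh3* was at 6.24 and 6.34 in WT and 5.02, 4.40 and 4.25 in H19Ter+neo (log2 fold change -1.74 ± 0.18 SE, adjusted p = 4.83e-05). *Cdh2*, the neural cadherin, was at 4.04 and 3.91 in WT and 4.92, 4.96 and 5.28 in H19Ter+neo (log2 fold change 1.08 ± 0.11 SE, adjusted p = 4.89e-05). Cadherins 1 and 3 were thus lower and cadherin 2 higher in every mutant library than in either WT library. Of 40 adhesion and junction genes 17 fell and 9 rose. Actin genes fell in 31 and rose in 6 of 67 cases, with the crosslinker *Flna* at 8.07 and 8.09 in WT and 6.99, 6.64 and 6.42 in H19Ter+neo (log2 fold change -1.40 ± 0.13 SE, adjusted p = 3.09e-05), and 24 of them were lower than in H19Ter. Collagens and other matrix genes rose in 28 and fell in 12 of 66 cases. *Col4a5*, of basement membranes, was at 1.47 and 1.41 in WT and 3.07, 2.92 and 3.07 in H19Ter+neo (log2 fold change 1.57 ± 0.13 SE, adjusted p = 1.54e-05) and *Lama1*, a laminin, rose (1.34), while *Fn1*, fibronectin, was at 9.86 and 9.99 in WT and 8.99, 8.92 and 8.85 in H19Ter+neo (log2 fold change -1.0 ± 0.061 SE, adjusted p = 3.64e-06). The adhesion list had 4 rises without WT replicate 2.

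Genes of neurons, channels and other cell surfaces rose more often than they fell, and many of them had low levels. Of 63 synapse and axon guidance genes 38 rose and 8 fell (median 0.59), of 66 potassium channel genes 41 and 8 (median 0.95), and of 35 other voltage-gated channels 21 and 4 (median 0.81). *Cntn1* was at -0.76 and -0.29 in WT and 1.61, 2.57 and 2.16 in H19Ter+neo and the synaptic vesicle sensor *Syt1* at 1.01 and -0.003 in WT and 2.18, 2.51 and 2.85 in H19Ter+neo, with rises of 6.23-fold and 4.02-fold. *Kcnma1*, a calcium-activated potassium channel, was at 0.81 and 0.29 in WT and 2.99, 2.61 and 3.19 in H19Ter+neo (log2 fold change 2.38 ± 0.26 SE, adjusted p = 5.76e-05), and the calcium channel *Cacna1c* rose (2.06). *Syn1*, a synaptic vesicle protein, fell (-1.09), as did the potassium channel *Kcnh1* (-1.36). Other surface families ran the same way. ABC transporters rose in 27 of 46, ADAM and ADAMTS proteases in 21 of 40, orphan and adhesion G protein-coupled receptors in 28 of 63 and solute carriers in 100 of 261, with 6, 3, 4 and 49 falls. Without WT replicate 2, rises numbered 11 for ADAM and ADAMTS proteases, 18 for these receptors and 63 for solute carriers, and falls 4 for synapse genes and 4 for potassium channels.

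Homeobox and receptor genes that are silent or nearly so in germ cells were listed with more reads. Of 16 *Hox* genes with a value, the patterning factors of the body axis, 13 rose and 0 fell. *Hoxb7* was at -0.71 and -0.55 in WT and 0.70, 1.11 and 0.77 in H19Ter+neo (log2 fold change 1.49 ± 0.24 SE, adjusted p = 0.000494), and *Hoxa3*, at 0.61 and 0.92 in WT and 2.08, 2.56 and 2.65 in H19Ter+neo, was the one with the smallest p. Of 71 olfactory and vomeronasal receptor genes 47 rose and 3 fell (median 1.53). *Olfr1393* was at 0.31 and 0.51 in WT and 1.83, 2.10 and 2.38 in H19Ter+neo, with the mutant libraries above those of WT. Without WT replicate 1, 8 *Hox* genes rose.

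How these genes came into the table bears on their counts. A gene has a value only if it exceeded 0.5 CPM in at least 2 of the 7 libraries, and a gene that did so through the H19Ter+neo libraries alone had to be higher there. Such genes numbered 754, of which 578 passed as higher, and 170 were kept through WT alone, of which 125 passed as lower. They included 28 of the olfactory and vomeronasal receptors (2 through WT alone), 9 of the potassium channels, 4 of the synapse genes and 1 *Hox* gene, with none through WT alone in the last 3. Restricted to genes with a mean level of at least 1, where 24.5% of all genes rose and 33.0% fell, synapse genes had 28 rises and 8 falls in 44 (median 0.51) and potassium channels 16 and 7 in 32 (median 0.37). All 4 *Hox* genes at that level rose, and 6 of 9 olfactory and vomeronasal receptors did. Solute carriers at that level had 58 rises and 44 falls in 178, with a median of 0.030. ABC transporters had 17 and 6 in 32, ADAM and ADAMTS proteases 10 and 3 in 21, and orphan and adhesion G protein-coupled receptors 14 and 4 in 38. With a mean level of at least 1, pluripotency genes fell in 26 and rose in 1 of 30 cases, mitotic genes in 43 and 5 of 65, and ribosome biogenesis genes in 47 and 3 of 70.

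**Figure D5:**
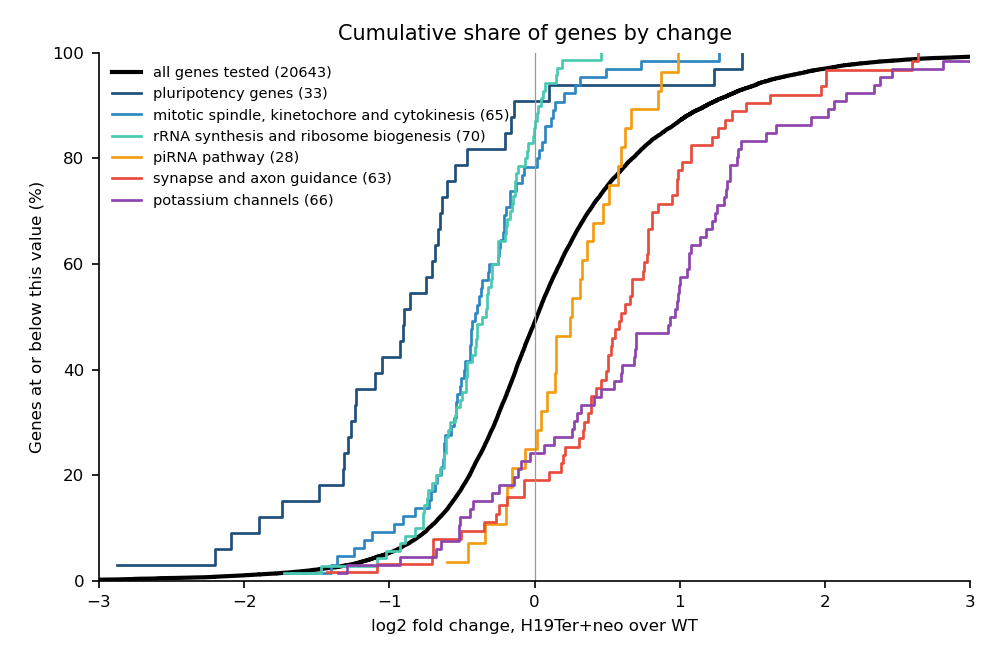
Cumulative share of genes (percent, vertical axis) by log2 fold change of H19Ter+neo against WT (horizontal axis) for 6 gene lists and for all genes with a value (black). The curves of the pluripotency, mitotic and ribosome biogenesis genes lie left of that of all genes, with medians of -0.90, -0.41 and -0.35, and that of the potassium channels lies to its right, with a median of 0.95.

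The sort gave germ cells in both genotypes. The 10 germ cell markers summed to 4280 and 4442 CPM in WT and to 4618, 4791 and 4705 in H19Ter+neo, and *Dazl*, whose protein binds mRNAs in germ cells, stood at 9.98 and 10.18 in WT and 10.08, 9.90 and 9.86 in H19Ter+neo (adjusted p = 0.178). Markers of other cells summed to far less. The 17 Sertoli cell markers with a value gave 41.6 and 40.8 in WT and 49.8, 37.6 and 40.9 in H19Ter+neo, with 3 higher and 3 lower, and the 8 Leydig cell markers 73.1 and 78.8 against 94.3, 68.3 and 65.2, with 1 in each direction. These ranges overlapped between genotypes. The 17 interstitial and peritubular markers summed to 426 and 441 in WT and 324, 302 and 267 in H19Ter+neo, with 3 higher and 3 lower. *Ptch1* (-0.72) alone averaged 355 CPM in WT, so that it made up most of these sums. *Pdgfrb*, a receptor of stromal cells, was at 1.79 and 1.59 in WT and 3.31, 3.20 and 3.71 in H19Ter+neo (log2 fold change 1.72 ± 0.16 SE, adjusted p = 2.68e-05). Of the 10 endothelial markers 6 rose and 2 fell, the falls being *Pecam1* (-1.10), which germ cells also make, and *Plvap* (-1.02). Their sum was lower in the mutant, at 77.6 and 83.9 in WT and 66.3, 68.2 and 70.0 in H19Ter+neo, without overlap. Only 5 leukocyte and macrophage markers had a value, and they summed to 7.88 and 6.29 in WT and to 7.73, 8.52 and 10.1 in H19Ter+neo, with 3 higher and 0 lower. The 3 erythroid markers with a value summed to 4.2 and 2.92 in WT and to 7.47, 6.62 and 7.19 in H19Ter+neo, without overlap, and 2 were higher. No marker with a value was at 0 in any of the 5 libraries, and the part of other cells in the rises of surface genes was not tested. In bulk RNA, fewer cells of a type cannot be told apart from less RNA per cell.

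In the ranking of genes with a mean level of at least 1 and no overlap between groups, symbols starting with Gm or ending with Rik were left out. There, the 2 largest rises and 10 of the 15 largest falls were in annotated pseudogenes of ribosomal protein genes. *Rps3a3*, annotated as a processed pseudogene, was at -0.71 and -0.29 in WT and 6.70, 7.45 and 5.20 in H19Ter+neo (log2 fold change 6.95 ± 0.56 SE, adjusted p = 1.42e-05), and *Rps13-ps1* at -1.63 and -1.84 in WT and 5.24, 4.34 and 4.98 in H19Ter+neo. *Rpl28-ps3* was at 3.63 and 3.56 in WT and 0.12, 0.25 and -0.44 in H19Ter+neo and *Rps6-ps4* at 3.91 and 4.12 in WT and 1.63, 1.66 and 1.63 in H19Ter+neo. These 4 genes changed in either direction, and separation of the groups was a condition of the ranking. The others among the 15 largest changes on each side were *Rpl3-ps1* (4.27) on the rising side and *Rps2-ps10* (-3.16), *Rpl36-ps2* (-3.06), *Rpl30-ps1* (-2.97), *Rpl18-ps1* (-2.85), *Rpl35a-ps2* (-2.59), *Rps18-ps3* (-2.46), *Rpl36a-ps2* (-2.26) and *Rpl37rt* (-2.23) on the falling side. Of 238 pseudogenes named ps, 102 fell and 41 rose (median -0.45), and 85 were lower and 17 higher than in H19Ter. A copy shares most of its sequence with its parent gene, and a copy carried by 1 mouse strain can differ in another, so that these values are uncertain as measures of expression, and strain was not given per library. Of 11 genes known to vary in level between mouse strains 5 rose and 1 fell. With a mean level of at least 1, 3 of 9 rose (33.3%) and 1 fell (11.1%), against 24.5% and 33.0% of all genes at that level. A difference in strain between the genotypes was not tested. *Rprl2* and *Rprl3*, RNA genes related to the RNA of RNase P, rose by 5.09 and 5.20 on the log2 scale. *Rprl3* was at 3.61 and 3.38 in WT and 10.07, 5.68 and 10.33 in H19Ter+neo, with replicate 6 far below the other mutant libraries, and did not pass with voom weights (log2 fold change 5.19).

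Base composition also moved with the changes. Among genes with a mean level of at least 1, the median log2 fold change ran from 0.057 in the fifth of genes with the lowest GC content to -0.18 in the fifth with the highest. After a correction for GC content and gene length, 11553 genes passed, 5826 higher and 5727 lower. Pluripotency genes then had 26 falls and 2 rises (median -0.86), mitotic genes 47 and 6 (-0.42), ribosome biogenesis genes 44 and 3 (-0.32), piRNA genes 6 and 16 (0.28) and synapse genes 7 and 34 (0.55). With every library thinned to the smallest total, which takes away the difference in depth, pluripotency genes had 27 falls and 2 rises, mitotic genes 44 and 5, ribosome biogenesis genes 47 and 2, piRNA genes 5 and 15 and synapse genes 8 and 36. Without WT replicate 2, the library whose absence cost the most calls, the 5 lists kept medians of -0.82, -0.33, -0.32, 0.23 and 0.58.

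Set against H19Ter, in which the terminator remains without Pgkneo, part of these changes were larger in H19Ter+neo. In the test of the difference between the mutants 5717 of 20643 genes passed (27.7%), 2587 higher and 3130 lower in H19Ter+neo. *L1td1* differed by -1.57 ± 0.21 SE (adjusted p = 0.000752), *Nodal* by -0.91 ± 0.13 SE (adjusted p = 0.00102) and *Sox2* by -0.72 ± 0.13 SE (adjusted p = 0.00373) on the log2 scale, H19Ter+neo minus H19Ter. *Nolc1* differed by -1.30 (adjusted p = 7.82e-05), *Mki67* by -0.63 (adjusted p = 0.0468), *Piwil4* by 0.37 (adjusted p = 0.0136), *Dnmt3l* by 0.011 (adjusted p = 0.951) and *Mei1* by 0.48 (adjusted p = 0.145). Both mutants were set against the same 2 WT libraries, so that a change in both is not 2 independent results.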

How the data were processed

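Read trimming (Trim Galore 0.6.0), alignment to mm10 (STAR 2.7.8) and counting of read pairs per gene were done by the authors, and edgeR and deepTools also appear in their processing notes. They deposited log2 CPM that carry a mean prior count of 2 reads, for 20643 genes that exceeded 0.5 CPM in at least 2 of 7 libraries. Undoing the log and the prior gave whole read pairs in 100% of values, to within 0.01 of a read pair. Gene names and coordinates came from GENCODE on GRCm38 (mm10).

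limma 3.58.1 (R 4.3.3) was run on the log2 values of all 7 libraries, with genotype as the only factor and a mean-variance trend, and tested on simulated data. Two-sided p-values were adjusted by Benjamini-Hochberg over all genes. Lists were described by counts and medians, without a test. The comparison, the lists and their members were chosen with earlier results of these data known.

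Genes named are from the 15 largest rises and falls with a mean log2 CPM of at least 1 and no overlap between groups, up to 5 members a list by p and up to 3 by size of change among those that passed, genes at the inserted cassettes, and first markers of each cell type. The largest rises and falls were ranked without symbols that start with Gm or end with Rik. *Cdc20*, *Dnmt3a*, *Dusp4*, *Espl1*, *Esrrb*, *Kif11*, *Nanog*, *Nr5a2*, *Otx2*, *Prdm14*, *Stra8*, *Sycp3* and *Tbx3* were chosen after their values were seen. Alternatives were other scalings, prior counts of 0.5 and 5 reads, filters at a log2 value of 0 and 1, the 5 libraries alone, voom weights, thinning to the smallest total, a correction for GC content and length, a minimum change of 1.5-fold, and each library left out.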

Additional observations from a re-analysis of the deposited data

How the results depend on the processing

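No paired analysis was possible because WT carries replicate numbers 1 and 2 and H19Ter+neo 5, 6 and 7, so that no number is shared. With a minimum change of 1.5-fold in the null hypothesis, 2286 genes passed, 1498 higher and 788 lower. With only genes at a log2 value of at least 1 in 2 libraries, the genes past 2-fold were 1811, 1159 higher and 652 lower, where the construction of the filter leaves fewer low genes to test. Leaving out each library in turn gave 7730 to 11118 genes past the threshold (4004 to 5548 higher, 3726 to 5570 lower) and 2981 to 3928 past 2-fold (2067 to 2806 higher, 914 to 1192 lower). The fewest calls came without WT replicate 2, which leaves 1 WT library, assumed to vary like the other groups. The remaining alternatives moved no count over all genes by over 1.5 times. Counts within lists did move. The filter at a log2 value of 1, which leaves fewer low genes, left 9 rises of 47 among olfactory and vomeronasal receptors, 25 of 41 among potassium channels, 65 of 100 among solute carriers, 16 of 28 among G protein-coupled receptors, 12 of 21 among ADAM and ADAMTS proteases, 6 of 13 among *Hox* genes, 6 of 10 among ovarian germ cell genes and 2 of 7 in the distal chromosome 7 cluster, and 21 rises of 41 and 59 falls of 102 among pseudogenes. Falls of arrest genes were 3, against 5, with the 5 libraries alone or voom weights. With GC content and length corrected for, NODAL, activin and BMP genes had 3 rises, against 5, and replication-dependent histones 7 falls, against 11. Small nucleolar RNAs had 6 falls with that correction, against 3. The filter at a log2 value of 0 left 19 rises among olfactory and vomeronasal receptors, 8 among *Hox* genes and 4 in the distal chromosome 7 cluster. The other list counts that moved by over 1.5 times without a library being left out were of at most 4 genes.

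Of 190 genes named that passed, 186 kept their call in every alternative that gave a value, 3 (*Dnmt3a*, *Pgk1* and *Phex*) lost it without WT replicate 2, 1 (*Rprl3*) with voom weights and 0 reversed. Most of these 190 genes were named for a small p or a large change in these same libraries. That they kept their calls was therefore likely from the start and says little about genes not named. Of the 6 named genes that did not pass, 4 passed in at least 1 alternative. *Dazl* (-0.32) and *Gm33148* (-0.45) passed after the correction for GC content and length. *Stra8* (0.88) and *Dazl* (-0.20) passed without H19Ter+neo replicate 5, and *Sycp3* (0.28) without H19Ter+neo replicate 7. *Sycp3* had a log2 fold change of -0.053 after the correction for GC content and length, against 0.17. *Igf2* ran from -0.15 without WT replicate 2 to 0.36 without WT replicate 1, against 0.11. The causes were not tested. Strain, litter and depth differ with genotype or may do so, and 2 WT libraries set the precision of every change.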
